A study of Mus musculus with 2 samples.

Results

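The 6 genes described here are the 4 reprogramming factors carried by the STEMCCA cassette, Pou5f1, Sox2, Klf4 and Myc, and the 2 other members of the Myc family, Mycn and Mycl. They were chosen by name, and all 6 were among the 17408 genes of the single-cell table. Their RNA was followed in 7023 cells, and above all in the 557 cells in which at least 3 of the 5 pluripotency markers Utf1, Tdgf1, Tdh, Nanog and Dppa4 were detected. None of the 6 genes took part in that split.

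The factors encoded by these genes can turn a fibroblast into an induced pluripotent stem cell (iPSC) when they are expressed together. Pou5f1 (OCT4) and Sox2 are transcription factors that bind DNA side by side at many pluripotency genes, including their own, and pluripotent cells need both. Klf4 belongs to the pluripotency network and is also transcribed in many differentiated cells. Myc, Mycn and Mycl pair with Max at E-box sequences and raise the transcription of genes for ribosome production and growth, and Mycn is the family member best known from early embryonic cells.

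The cells were mouse embryonic fibroblasts (MEFs) carrying a doxycycline-inducible STEMCCA cassette, taken unsorted on day 16 of reprogramming. They were kept in mouse embryonic stem cell medium with LIF, ascorbic acid at 50 µg/ml and doxycycline, so the cassette was meant to be switched on in the pluripotent and in the other cells alike. All cells formed 1 group with 2 droplet libraries (10x Chromium, 3' ends), called replicate 1 and replicate 2, and no untreated or doxycycline-free cells were compared. The study used a pair of independent STEMCCA systems. How the libraries map onto these systems, and whether they are separate cultures, is not stated. The p-values therefore measure only the spread between these libraries, and limma shared that spread over genes, in part or in full. The table gives 1 value per gene, and RNA made from the cassette was not told apart from RNA of the cell's own Pou5f1, Sox2, Klf4 and Myc.

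Replicate 1 held 3109 cells and 54145377 unique molecular identifiers (UMIs, 1 for each RNA molecule counted), and replicate 2 held 3914 cells and 64654306 UMIs, and the middle cell of each held 15625 and 14292 UMIs. Marker-positive cells, those with at least 3 of the 5 markers, made up 5.15% of replicate 1 (160 cells, with an exact binomial 95% interval of 4.40 to 5.98%) and 10.1% of replicate 2 (397 cells, 9.21 to 11.1%). They were deeper than the other cells, at medians of 28353.5 and 26097 UMIs against 15189 and 13641. Intervals given for shares and summed UMIs cover counting error only. The libraries shared 12 cell barcodes. The summed level of 12 pluripotency markers was 51.4 and 61.3 UMIs per 10000 in marker-positive cells against 2.34 and 2.45 in the others. The same sums were 2.16 and 2.27 against 35.4 and 22.0 for 12 fibroblast markers, 3.08 and 2.91 against 0.590 and 0.429 for 11 epithelial markers, and 0.120 and 0.175 against 0.265 and 0.468 for 8 macrophage markers. They were 7.02 and 5.40 against 1.64 and 1.24 for 6 neural markers, and 0.267 and 0.393 against 0.0190 and 0.0791 for 5 trophoblast markers. In marker-positive cells 2 of the fibroblast markers were at 0 in replicate 1 and none in replicate 2, 5 and 2 of the macrophage markers, 1 and 1 of the neural markers and 0 and 1 of the trophoblast markers were at 0, and no epithelial marker was at 0. The part of these cell types in the results below was not tested.

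The genes lie on 5 chromosomes of the mouse build GRCm38 and all are annotated as protein-coding. Pou5f1 is at chr17:35506018-35510772 on the plus strand, Sox2 at chr3:34650405-34652461 on the plus strand and Klf4 at chr4:55527143-55532466 on the minus strand. Myc is at chr15:61985391-61990374 on the plus strand, Mycn at chr12:12936093-12941914 on the minus strand and Mycl at chr4:122995652-123002485 on the plus strand. The antisense gene Gm19553 overlaps Pou5f1 and had 72 UMIs in all cells against 17593 for Pou5f1, and Sox2 lies inside the long transcript Sox2ot on the same strand, which has no row in the table. Pou5f1 also has 4 processed pseudogenes with 78.9 to 87.2% identity over 276 to 1090 bases and no rows of their own, so how reads that match both were assigned is not known.

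RefSeq promoter sequences were matched for 5 of the 6 genes, all but Myc. The 250 bases before the start sites are shown for Klf4, Pou5f1, Sox2 and Mycn, the well-counted genes whose RNA was higher in marker-positive cells, and capitals mark the only motif matches found in them. The sequences run 5' to 3' on the gene's strand and come from RefSeq on GRCm38.p6: Klf4 chr4:55532476-55532725 (minus), Pou5f1 chr17:35508557-35508806 and chr17:35505782-35506031 (plus), Sox2 chr3:34649745-34649994 (plus) and Mycn chr12:12941837-12942086 (minus).
Klf4: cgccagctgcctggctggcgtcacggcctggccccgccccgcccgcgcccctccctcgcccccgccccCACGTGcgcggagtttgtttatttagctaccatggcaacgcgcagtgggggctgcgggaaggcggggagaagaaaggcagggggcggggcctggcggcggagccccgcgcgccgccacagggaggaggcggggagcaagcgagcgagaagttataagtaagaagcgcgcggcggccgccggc
Pou5f1, second start: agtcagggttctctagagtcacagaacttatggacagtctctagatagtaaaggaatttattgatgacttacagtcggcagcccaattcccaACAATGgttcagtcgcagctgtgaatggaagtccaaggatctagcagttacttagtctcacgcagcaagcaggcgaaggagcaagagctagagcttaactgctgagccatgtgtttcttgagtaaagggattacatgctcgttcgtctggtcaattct
Pou5f1, first start: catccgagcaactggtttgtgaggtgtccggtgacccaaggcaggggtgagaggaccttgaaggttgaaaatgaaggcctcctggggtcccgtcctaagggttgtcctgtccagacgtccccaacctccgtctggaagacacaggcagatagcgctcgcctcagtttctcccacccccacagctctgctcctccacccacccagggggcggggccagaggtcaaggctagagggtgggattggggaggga
Sox2: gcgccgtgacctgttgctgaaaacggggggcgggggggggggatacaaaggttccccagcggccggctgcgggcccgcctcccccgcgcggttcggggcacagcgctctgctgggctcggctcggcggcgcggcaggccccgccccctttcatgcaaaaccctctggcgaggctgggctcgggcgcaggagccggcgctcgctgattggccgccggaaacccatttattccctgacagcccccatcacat
Mycn: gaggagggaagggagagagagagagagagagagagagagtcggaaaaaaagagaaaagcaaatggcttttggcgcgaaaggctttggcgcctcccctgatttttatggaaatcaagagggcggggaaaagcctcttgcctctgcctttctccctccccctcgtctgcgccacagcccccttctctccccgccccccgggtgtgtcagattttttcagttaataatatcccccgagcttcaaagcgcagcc
Each was searched on both strands for an octamer (ATGCAAAT), a Sox motif (CATTGT), a Klf motif (GGGTGTGG) and an E-box (CACGTG), and no match overlapped another. The Klf4 window held an E-box at position -182 from the start, a motif present in 6.02% of 32851 mouse promoters of this length. The second Pou5f1 window held a Sox motif on the reverse strand (ACAATG) at position -158, and 10.7% of all promoters held one. The windows of the first Pou5f1 start, Sox2, Mycn and Mycl held none of the 4 motifs. The octamer was found in 1.6% and the Klf motif in 3.2% of all promoters.

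Pou5f1 and Sox2 RNA was concentrated in the marker-positive cells, Klf4 RNA was higher there but present outside, and Myc RNA was lower there than in the other cells. Levels are means over cells of the UMIs of a gene per 10000 UMIs of the cell. Pou5f1 stood at 9.84 in the marker-positive cells of replicate 1 and 11.1 in those of replicate 2, against 0.0835 and 0.154 in the other cells (10.5 ± 0.922 against 0.118 ± 0.0495, mean ± SD, n = 2 libraries). The difference was 118-fold in replicate 1 and 72.6-fold in replicate 2. Sox2 stood at 2.64 and 2.91 against 0.0330 and 0.0273 (2.77 ± 0.185 against 0.0302 ± 0.00400, n = 2), an 80.1-fold and a 106-fold difference. In both genes the lower library mean of the marker-positive cells lay far above the higher library mean of the other cells.

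Klf4 stood at 1.04 and 1.09 in marker-positive cells and at 0.217 and 0.191 in the other cells (1.06 ± 0.0312 against 0.204 ± 0.0182, n = 2), which is 4.81-fold and 5.69-fold. Klf4 was thus higher in both libraries, by a much smaller ratio than Pou5f1 and Sox2. Myc went the other way, at 0.0682 and 0.0323 in marker-positive cells against 0.147 and 0.118 in the others (0.0502 ± 0.0254 against 0.133 ± 0.0206, n = 2). The other cells had 2.16 times the marker-positive level of Myc in replicate 1 and 3.66 times in replicate 2, and the groups did not overlap. Counts of Myc in the marker-positive cells were small, at 32 UMIs in replicate 1 and 29 in replicate 2.

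The other Myc family members were higher in marker-positive cells. Mycn stood at 0.425 and 0.438 against 0.00975 and 0.00992 (0.431 ± 0.00919 against 0.00984 ± 0.000116, n = 2), which is 43.5-fold and 44.1-fold, and the libraries differed little. Mycl was rare everywhere, at 0.0172 and 0.0211 against 0.00294 and 0.00115, from 9 and 22 UMIs in marker-positive cells and 16 and 8 in the others. Its ratios, 5.86 and 18.3, rest on those few molecules.

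The comparison was tested with limma on log2(level + 0.1), fitted over the 7131 genes whose mean over all cells reached 0.1 per 10000, with the library as a term and Benjamini-Hochberg adjustment. Of the 6 genes 4 passed this minimum. Pou5f1, with a log2 fold of 5.61 (SE 0.10, limma adjusted p 3.12e-09), Sox2 (4.46, SE 0.09, limma adjusted p 5.08e-09) and Klf4 (1.94, SE 0.09, limma adjusted p 1.47e-07) were called higher. Myc was called lower, at -0.64 (SE 0.09, limma adjusted p 0.000159). These calls have to be read against a background in which 77.2% of all genes tested were called, 31.3% higher and 45.9% lower, so being called is the common case here and the size of a fold says more. The fold of Pou5f1 was the second highest of all 7131 genes, that of Sox2 the fifth and that of Klf4 number 80, while Myc was number 1991 from the lowest. Sox2 was below the minimum in the other cells and passed it only through the marker-positive cells, so a difference was built in for it. Pou5f1 (on average over the libraries) and Klf4 were above the minimum in both groups. Myc was above it in the other cells but below it in the marker-positive cells. It thus passed only through the group where it was higher, and a difference was built in for Myc as well. With no minimum on low values the Myc fold was the same, with a limma adjusted p of 0.0141.

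The median log2 fold over all genes was -0.15, so the Myc fold relative to that median was -0.49 (limma adjusted p 0.000275). With the other cells limited to the depth of the marker-positive cells (medians of 26359 and 23537.5 UMIs), the folds were 5.65, 4.49, 2.27 and -0.78 for Pou5f1, Sox2, Klf4 and Myc. Mycn and Mycl entered the fit only without the minimum on low values. There Mycn had a log2 fold of 2.27 (limma adjusted p 0.00606) and Mycl one of 0.22 (limma adjusted p 0.0401), both understated by the added 0.1, which is far above their levels in the other cells.

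**Figure D1:**
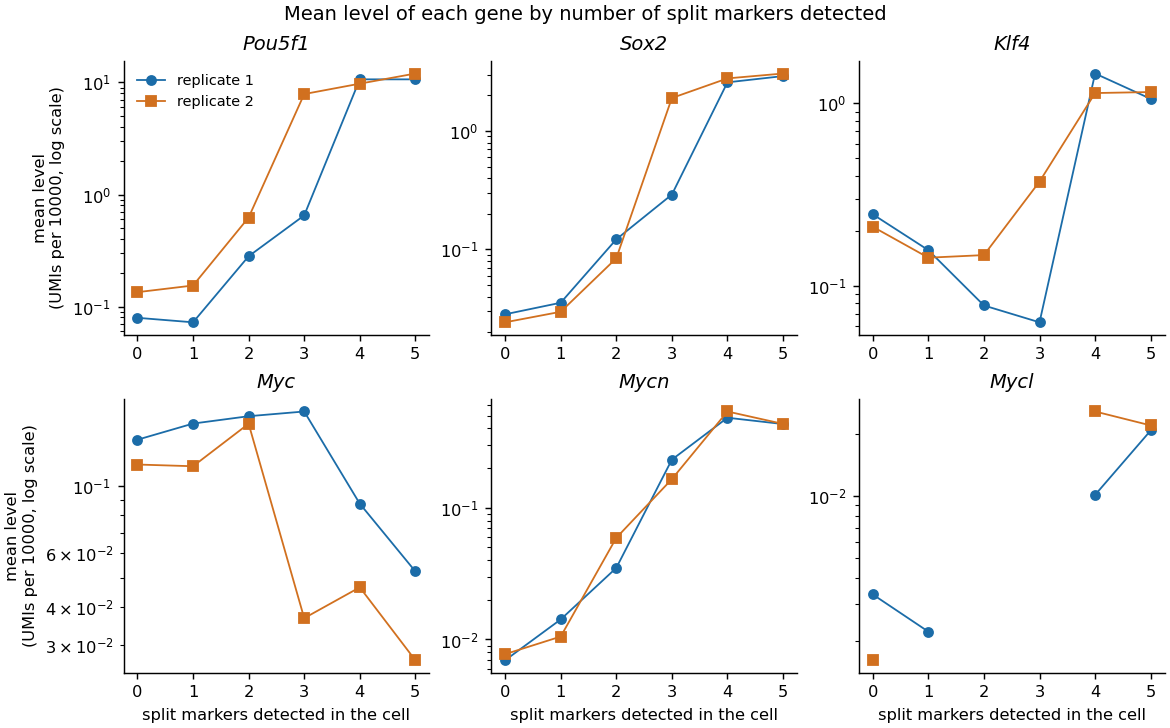
Mean level of each gene (UMIs per 10000, log axis) in cells with 0 to 5 of the split markers detected, for replicate 1 (circles) and replicate 2 (squares). Points with no UMI (Mycl at 1 marker in replicate 2 and at 2 and 3 markers in both) are left out. Pou5f1, Sox2 and Mycn climb between 2 and 4 markers, Klf4 is highest at 4 or 5 markers and lowest at 3 in replicate 1 and at 1 in replicate 2, and Myc is lower at 4 and 5 markers than at 0 to 2.

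The levels did not climb evenly with the number of markers detected, as the plot of levels by marker number shows. Pou5f1 stood in replicate 1 at 0.0794, 0.0724, 0.281, 0.651, 10.7 and 10.6 in cells with 0, 1, 2, 3, 4 and 5 markers. In replicate 2 it stood at 0.134, 0.154, 0.623, 7.87, 9.75 and 12.003. Cells with 0 or 1 marker were alike and cells with 4 or 5 markers were alike, and the libraries parted at exactly 3 markers, where Pou5f1 was detected in 3 of 13 cells (23.1%) in replicate 1 and in 24 of 31 cells (77.4%) in replicate 2. Sox2 parted in the same place, at 0.291 in replicate 1 and 1.90 in replicate 2. The libraries also parted there in depth, at medians of 22813 and 13588 UMIs for these cells.

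Klf4 took another course. In replicate 1 it fell from 0.246 with no marker to 0.157 with 1, 0.0780 with 2 and 0.0631 with 3 markers, and stood at 1.45 and 1.06 with 4 and 5. In replicate 2 the values were 0.211, 0.143, 0.147, 0.372, 1.14 and 1.15. The lowest Klf4 levels were therefore found in cells with some markers, not in cells with none. The low point was at 3 markers in replicate 1, in few cells, and at 1 marker in replicate 2. These levels were not matched for depth. Myc lay between 0.116 and 0.169 in cells with 0 to 2 markers of either library, and at 0.0524 and 0.0268 in cells with all 5.

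Whether the members already differed among the cells outside the marker-positive group was asked by comparing cells with 1 or 2 markers (892 and 1012 cells) with cells with none (2057 and 2505 cells). Pou5f1 stood at 0.0928 and 0.201 against 0.0794 and 0.134, a log2 fold of 0.23 (SE 0.08, limma adjusted p 0.0157), and Klf4 at 0.149 and 0.143 against 0.246 and 0.211, a log2 fold of -0.41 (SE 0.08, limma adjusted p 1.29e-06). Sox2 (0.0439 and 0.0351 against 0.0283 and 0.0242, 0.14, limma adjusted p 0.186) and Myc (0.160 and 0.120 against 0.141 and 0.117, 0.06, limma adjusted p 0.624) were not called. In this comparison 21.8% of the 7131 genes were called, 6.9% higher and 14.9% lower. The fit gave every gene the same SE here, from a spread pooled over all genes tested. Its adjusted p-values therefore do not reflect how far the libraries differed for a single gene. Neither call was firm. The Pou5f1 fold was 0.10 in replicate 1 alone and 0.36 in replicate 2 alone. In replicate 2, 6 of the cells with 1 or 2 markers fell in the pluripotent-like cluster described below, and without that cluster the Pou5f1 fold was 0.12 (limma adjusted p 0.286). The cells with 1 or 2 markers were also deeper, at medians of 17139.5 and 14645 UMIs against 14370 and 13145, and at matched depth the Klf4 fold was -0.20 (limma adjusted p 0.0792). Both of these fits were added after the data had been seen.

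Detection in single cells followed the levels. In replicate 1 a UMI of Pou5f1 was found in 93.8% of marker-positive cells (95% exact interval 88.8 to 97.0%), Sox2 in 91.2%, Klf4 in 80%, Mycn in 62.5%, Myc in 15.6% and Mycl in 5.62%. In replicate 2 the shares were 98.2%, 96.5%, 74.3%, 55.4%, 6.30% and 5.04%. In the other cells they were 11.9% and 17.9% for Pou5f1, 4.07% and 3.61% for Sox2, 20.4% and 18.0% for Klf4, 20.2% and 15.8% for Myc, 1.59% and 1.22% for Mycn and 0.407% and 0.227% for Mycl. Myc was thus the only one of the 6 found in a smaller share of marker-positive than of other cells in both libraries at full depth.

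The shares depend on depth, so each cell was also thinned to 3000 UMIs, which left out no cell. At that depth Pou5f1 was found in 88.1% and 94.0% of marker-positive against 2.44% and 4.15% of other cells, and Sox2 in 48.1% and 56.7% against 0.882% and 0.825%. Klf4 was found in 24.4% and 24.9% against 5.49% and 5.15%, Mycn in 10% and 13.4% against 0.339% and 0.284%, and Myc in 1.88% and 0.756% against 4.04% and 3.70%. The order of the groups was the same as at full depth for these 5 genes. Mycl was found in 0 of 160 and 0 of 397 marker-positive cells at this depth, which allows shares of up to 1.88% and 0.756% at 3 counts of the total (exact upper bounds 2.28% and 0.925%).

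Pou5f1 was also found in fibroblast-like and macrophage-like cells. In fibroblast-like cells with no marker, which carry the cassette too, it was found in 9.30% of 215 cells (median 13075 UMIs) and 16.3% of 129 cells (median 11201 UMIs), and in 0 of 4 and 2 of 9 macrophage-like cells (medians of 8664.5 and 8833 UMIs). The shares of 11.9% and 17.9% among all other cells, at medians of 15189 and 13641 UMIs, lie above those of the shallower fibroblast-like cells in both libraries. With cells thinned to 3000 UMIs the shares were close, at 2.33% and 3.88% of the fibroblast-like against 2.44% and 4.15% of all other cells. Free RNA in the droplets, cassette RNA and the cells' own RNA cannot be told apart here. Sox2 was found in 1.40% and 2.33%, and Mycn in 1.40% and 1.55%, of the same fibroblast-like cells. Klf4 was found in 29.3% and 14.0% of them, on either side of its shares in all other cells, and Myc in 5.12% and 5.43%, well below its shares in all other cells. Of the other cells, 23 (0.780%) in replicate 1 and 89 (2.53%) in replicate 2 held at least 2 Pou5f1 UMIs, and 1 and 2 cells held at least 10. The 2 such cells of replicate 2 lay in the pluripotent-like cluster.

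**Figure D2:**
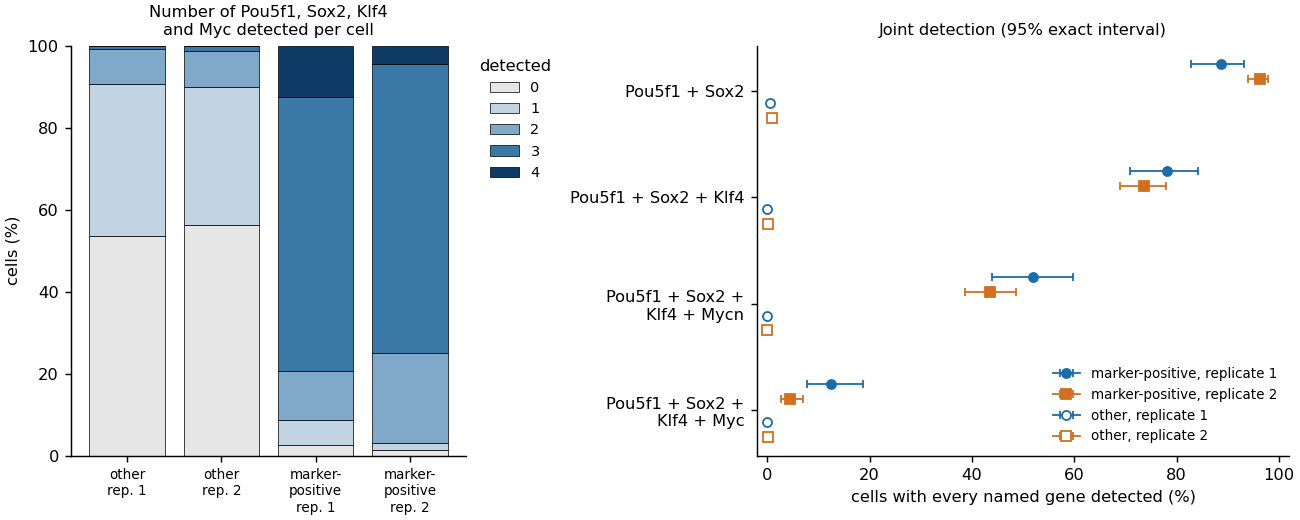
Left, share of cells (%) in which 0, 1, 2, 3 or 4 of Pou5f1, Sox2, Klf4 and Myc were detected, for the other and the marker-positive cells of each library. Right, share of cells (%) with every gene of a combination detected, with 95% exact binomial intervals, for marker-positive (filled) and other cells (open): the combination with Myc is found in 12.5% and 4.53% of marker-positive cells, against 51.9% and 43.6% for that with Mycn.

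RNA of all 4 cassette factors was seldom detected in the same cell, and almost only in marker-positive cells. These counts do not show whether the cassette itself was expressed in a cell, since its RNA was not told apart. All 4 were found in 20 of 160 marker-positive cells in replicate 1 (12.5%, 95% exact interval 7.81 to 18.6%) and in 18 of 397 in replicate 2 (4.53%, 2.71 to 7.07%). Among the other cells they were found in 0 of 2949 in replicate 1, which allows a share of up to 0.102% at 3 counts of the total (exact upper bound 0.125%), and in 3 of 3517 in replicate 2 (0.0853%, 0.0176 to 0.249%). The mean difference was 8.47 ± 5.69 percentage points over the 2 libraries. An exact sign-flip test over 2 libraries cannot give a two-sided p below 0.5, so no difference in shares was tested further. After thinning to 3000 UMIs all 4 were found in 1 cell, a marker-positive cell of replicate 1.

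In marker-positive cells Myc was the factor most often not detected. Its counts there were low, so a cell with no Myc UMI need not lack Myc RNA. The most common combination in marker-positive cells was Pou5f1, Sox2 and Klf4 without Myc, in 65.6% of cells in replicate 1 and 69.0% in replicate 2. Counting cells with or without Myc, these 3 factors were found together in 125 (78.1%) and 292 (73.6%) marker-positive cells, against 2 (0.0678%) and 5 (0.142%) of the other cells. Pou5f1 with Sox2 was found in 142 (88.8%) and 382 (96.2%) marker-positive cells against 18 (0.610%) and 33 (0.938%) of the others. With Mycn in the place of Myc, the 4 were found in 83 (51.9%, 43.8 to 59.8%) and 173 (43.6%, 38.6 to 48.6%) marker-positive cells and in 0 and 1 of the others. With any Myc family member as the fourth gene the shares were 58.1% and 47.1%.

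None of the 4 factors was detected in 4 and 5 of the marker-positive cells, against 53.7% and 56.2% of the other cells. In the other cells the most common finding after none was a single factor (37.0% and 33.8%), and Klf4 alone (14.8% and 11.8%) and Myc alone (14.0% and 9.50%) made up most of it, while Pou5f1 alone took 6.14% and 10.9%. Klf4 with Myc and neither Pou5f1 nor Sox2 was found in 64 and 69 of the other cells and in 0 of 160 and 0 of 397 marker-positive cells, with the same limits as given for Mycl. The 3 cells with all 4 factors outside the marker-positive group had 21259, 10193 and 13501 UMIs and 0, 1 and 2 markers. A pair of them held 1 UMI of each factor, and the cell with 2 markers held 7 of Pou5f1, 3 of Sox2, 2 of Klf4 and 1 of Myc.

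Within the marker-positive cells, Mycn was found in a larger share of Klf4-positive than of Klf4-negative cells. Klf4-positive cells held Mycn in 66.4% (replicate 1) and 58.6% (replicate 2), and Klf4-negative cells in 46.9% and 46.1%. The median depths were 28760.5 and 27800 UMIs with Klf4 and 27684.5 and 21501.5 without. Among the other cells, Sox2 was found in 5.13% and 5.25% of Pou5f1-positive cells and in 3.93% and 3.25% of Pou5f1-negative cells, at median depths of 17825 and 15673 against 14864.5 and 13280 UMIs. The groups also differed in makeup, since Klf4 was found in 1 and 3 of the 12 marker-positive cells per library outside the pluripotent-like cluster described below, and Mycn in 4 and 3 of them. The part of depth and makeup in these differences was not tested.

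**Figure D3:**
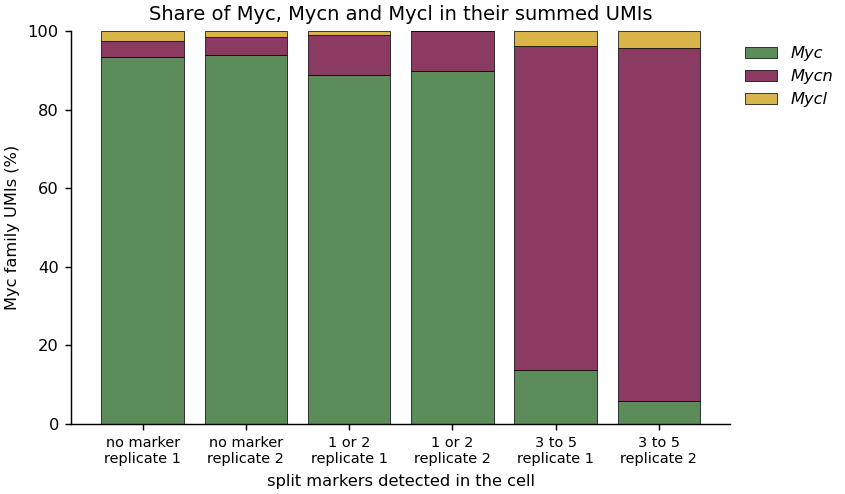
Share (%) of Myc, Mycn and Mycl in their summed UMIs in cells with no split marker, with 1 or 2 and with 3 to 5, for each library. Myc takes 88.9 to 93.8% in both groups with fewer than 3 markers, and Mycn takes 82.5% and 89.8% in marker-positive cells.

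Within the Myc family, RNA in marker-positive cells came mostly from Mycn and in the other cells mostly from Myc. Each UMI stands for 1 RNA molecule counted at its 3' end, so the shares of the family were taken without scaling by length. In marker-positive cells Mycn gave 193 of the family UMIs in replicate 1 (82.5%) and 451 in replicate 2 (89.8%), Myc gave 13.7% and 5.78%, and Mycl 3.85% and 4.38%. In the other cells Myc gave 783 UMIs (91.8%) and 677 (92.6%), Mycn 6.33% and 6.29%, and Mycl 1.88% and 1.09%. The mean Mycn share was 86.2 ± 5.21% in marker-positive and 6.31 ± 0.0268% in other cells (n = 2). Cells with 1 or 2 markers had a Mycn share of 10.1% in both libraries and cells with none had 4.21% and 4.56%. In replicate 2, 6 of the 23 Mycn UMIs behind the 10.1% came from 6 cells that fell in the pluripotent-like cluster described below. The share in that library therefore rests in part on those few cells.

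In single cells the same was seen as detection. Myc and Mycn were found together in 15 (9.38%) and 13 (3.27%) marker-positive cells. Mycn was detected in 15 of the 25 Myc-positive cells (60%) of replicate 1 and 13 of 25 (52%) of replicate 2, against 63.0% and 55.6% of the Myc-negative marker-positive cells. Mycn was thus found at much the same share with and without Myc, as far as 25 Myc-positive cells per library can show.

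**Figure D4:**
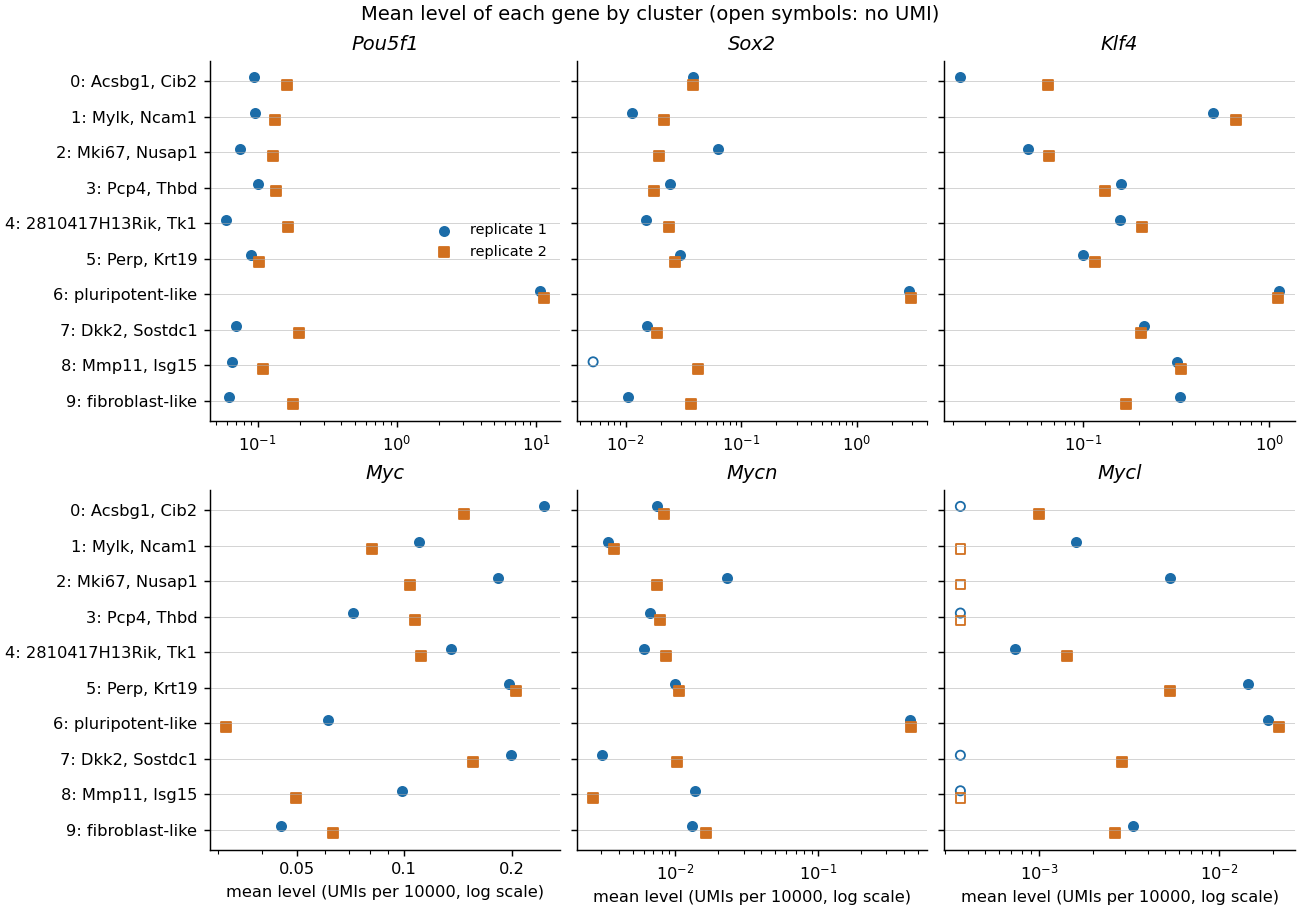
Mean level of each gene (UMIs per 10000, log axis) in the 10 clusters with at least 30 cells in both libraries, named by cell type markers where these allowed it and otherwise by leading genes, for replicate 1 (circles) and replicate 2 (squares). Open symbols stand for no UMI and are drawn at the left edge, below the lowest level found. Cluster 6 is highest for 5 of the 6 genes and lowest on average for Myc, and the share of all genes highest there was not counted.

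Cell states were also drawn without the split markers. Cells were clustered on 2000 variable genes, leaving out the 6 members, the split markers, 5 further pluripotency genes and the sex-linked genes, which gave 14 clusters, 10 of them with at least 30 cells in both libraries. Levels by cluster are a description with no test. Cluster 6, led by Dppa5a, Fabp3 and Zfp42, was pluripotent-like, with 11 of 12 pluripotency markers raised at least 2-fold, and it held 148 and 391 cells, of which 148 and 385 were marker-positive. It had the highest level of Pou5f1 (10.6 and 11.4), Sox2 (2.83 and 2.95), Klf4 (1.12 and 1.12), Mycn (0.441 and 0.451) and Mycl (0.0186 and 0.0214), and in none of these did its libraries overlap with those of the next cluster. Mycl rests on 9 and 22 UMIs in the marker-positive cells of cluster 6, beside a level of 0.0145 in cluster 5 of replicate 1. The share of all genes that were highest in cluster 6 without overlap was not counted, so this order sets the members apart from no other genes.

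Outside cluster 6, Pou5f1 was flat, at 0.0592 to 0.101 over the 9 other clusters in replicate 1 and 0.103 to 0.197 in replicate 2, and every neighbour in the order overlapped the next. Sox2 lay at or below 0.0628 and Mycn at or below 0.0228 in each of these clusters, again mostly with overlap between neighbours. Klf4 was not flat. It was second in cluster 1 (0.498 and 0.664), an unnamed cluster led by Mylk, Ncam1 and Prss23 with 9 of 12 fibroblast markers raised, and there it did not overlap with the third, cluster 8 (0.320 and 0.335), led by Mmp11, Isg15 and Dcn. It was lowest in cluster 0 (0.0220 and 0.0647), led by Acsbg1, Cib2 and Tac2, and in the mitotic-gene cluster 2 (0.0510 and 0.0654), which overlapped each other.

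Myc was ordered differently. It was highest in cluster 5 (0.197 and 0.205), led by Perp, Krt19 and Gsto1, in cluster 0 (0.247 and 0.147) and in cluster 7 (0.199 and 0.156), led by Dkk2 and Sostdc1, and these 3 overlapped. It was lowest in the pluripotent-like cluster (0.0610 and 0.0316), which overlapped with the fibroblast-like cluster 9 (0.0451 and 0.0633). The lower Myc of marker-positive cells was thus a difference from the pool of all other cells and not from each cluster. Against cluster 9 the pluripotent-like cluster was higher in replicate 1 and lower in replicate 2. Against cluster 8 (0.0984 and 0.0496) it was lower within each library, though the ranges over both libraries overlapped. Cluster 0, lowest for Klf4 and second for Myc, and cluster 1, second for Klf4 and sixth for Myc (0.110 and 0.0814), were placed differently by these genes. Cluster 3, led by Pcp4 and Thbd, was seventh for both, so this contrast did not run through all clusters.

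The marker-positive cells outside cluster 6 were 12 in each library and did not carry the factors to the same extent. Pou5f1 was found in 2 of the 12 (16.7%) in replicate 1 and 5 of the 12 (41.7%) in replicate 2, at mean levels of 0.132 and 1.62, against 10.6 and 11.4 in the marker-positive cells of cluster 6. Of them, 9 and 2 lay in the epithelial-like cluster 10 (65 and 4 cells), and 7 and 1 of these had no Pou5f1 UMI. In cluster 6 every cell had at least 1 Pou5f1 UMI, at levels from 0.849 to 19.6 in replicate 1 and from 1.36 to 22.8 in replicate 2, with medians of 10.4 and 10.97.

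**Figure D5:**
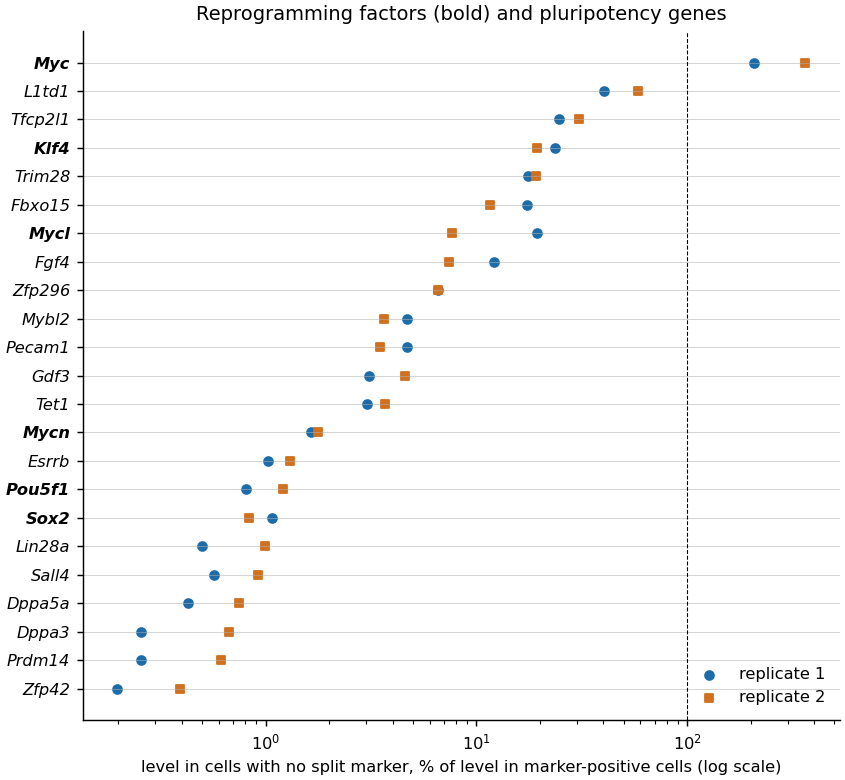
Level of each gene in cells with no split marker as a percentage of its level in marker-positive cells (log axis), for replicate 1 (circles) and replicate 2 (squares), with the 6 members in bold and 17 other pluripotency genes beside them. Pou5f1, Sox2 and Mycn lie at 0.808 to 1.77%, Klf4 near 20% and Myc above the dashed line at 100%.

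The level in cells with no marker, as a percentage of that in marker-positive cells, set the members side by side with 17 other pluripotency genes. Pou5f1 kept 0.808% and 1.21% of its level in cells with no marker, Sox2 1.07% and 0.834%, and Mycn 1.64% and 1.77%. Of the 17 genes, 6 lay below Pou5f1 in both libraries, namely Zfp42 (0.198% and 0.393%), Prdm14 (0.256% and 0.613%), Dppa3 (0.255% and 0.672%), Dppa5a (0.428% and 0.751%), Lin28a (0.5003% and 0.990%) and Sall4 (0.566% and 0.918%). The other 11 lay above it in both, the nearest being Esrrb, a nuclear receptor of the pluripotency network (1.03% and 1.31%). Klf4 kept 23.6% and 19.4%, between Trim28 (17.6% and 19.2%) and Tfcp2l1 (24.7% and 30.8%), and Mycl kept 19.4% and 7.66%. Myc stood at 207% and 363%. The part of cassette RNA in these levels was not tested.

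Genes that work with the factors were counted by lists. Of 10 Myc partners and antagonists 6 were tested, and 1 was called higher, 2 lower and 3 not, beside 31.3% of all genes higher and 45.9% lower. Mga, a partner of Max, was higher (log2 fold 0.88), and Mxd4 (-2.46) and Mxi1 (-0.82), which compete with Myc for Max, were lower. The median of the 6 was -0.20, beside -0.15 over all genes. Max itself stood at 0.244 and 0.275 against 0.320 and 0.294 and was not called (-0.18).

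Of 18 Myc targets all were tested, and 16 were called higher, 1 lower and 1 not, with a median log2 fold of 1.00, beside 31.3% of all genes called higher. Bcat1, an aminotransferase of branched-chain amino acids, had the highest fold (2.52), but at 0.0934 and 0.0279 in the other cells it passed the minimum only through the marker-positive cells. Next were Nop56 (1.59) and Nop58 (1.503), which belong to the particles that methylate ribosomal RNA. Ccnd2, a cyclin of the G1 phase, was lower (-3.06), and Ldha, the last enzyme of lactate formation, stood at 7.16 and 9.71 against 6.62 and 7.81 and was not called (0.21). With the other cells at matched depth 14 of the 18 were higher, with a median of 0.67, beside 28.1% of all genes.

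Of 10 targets of Pou5f1 and Sox2 6 were tested, and 5 were called higher, beside 31.3% of all genes, with the largest folds for Dppa5a (6.83), Zfp42 (4.33) and Fgf4 (2.22). Spp1, which encodes osteopontin, was not called (5.44 and 7.41 against 8.92 and 5.74, log2 fold -0.17). Of 11 factors that can stand in for a cassette factor in reprogramming only Klf2 (3.42) and Klf5 (3.30) passed the minimum, both called higher. Klf2 stood at 2.90 and 3.76 against 0.208 and 0.228, and Klf5 at 1.54 and 1.66 against 0.0646 and 0.0798, so their ratios were larger than that of Klf4. Fgf4, Zfp42 and Klf5 lay below the minimum in the other cells and entered the test only through the marker-positive cells, so their calls were built in and the counts of these lists support nothing further.

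Of 22 other genes of the POU, Sox and Klf families 11 were tested, with 5 called higher, 5 lower and 1 not, and a median log2 fold of 0.07. Klf3 (0.89), Klf9 (0.79) and Pou2f1 (0.49) were the highest, and Klf7 (-2.24), Sox4 (-1.79) and Sox11 (-1.13) the lowest. Sox11 stood at 0.385 in the marker-positive cells of replicate 1 and 0.0588 in those of replicate 2, so its log2 fold was -0.42 in replicate 1 and -1.85 in replicate 2, and the call rests mostly on replicate 2. Pou3f1, among the genes called higher, stood at 0.128 and 0.0681 in the other cells. On average over the libraries it lay below the minimum there and passed it only through the marker-positive cells. A difference was therefore built in for Pou3f1. Its log2 fold was 0.0581 in replicate 1 and 0.734 in replicate 2, so its call also rests mostly on replicate 2. The counts of this list read against 31.3% of all genes called higher and 45.9% lower.

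Finally, the genes whose levels over the clusters were most like each member were listed, by Pearson's correlation of log2(level + 0.1) over 20 profiles (10 clusters in 2 libraries) among 7127 genes. These profiles share their libraries and the contrast of cluster 6 with the rest, and the correlations are a description. Pou5f1 was most like Dppa5a (0.994), Dnmt3l (0.993) and Utf1 (0.992), and Sox2 most like Nanog (0.996), Utf1 (0.992) and Trap1a (0.992). Mycn was most like Utf1 (0.995), Fabp3 (0.995) and Rhox5 (0.994), and Mycl most like Got1 (0.918), Ass1 (0.915) and Atp1b1 (0.913). Klf4 was most like Smad7 (0.921), Brwd1 (0.906) and Atf4 (0.894), none of which was among the genes nearest to Pou5f1 or Sox2. Myc was most like Limch1 (0.883), Gm16286 (0.881) and Reep2 (0.881). By Spearman's correlation, which gives the contrast of cluster 6 less weight, 1, 0, 1, 2, 0 and 0 of the 3 genes named for Pou5f1, Sox2, Klf4, Myc, Mycn and Mycl stayed among the nearest 3.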

How the data were processed

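The deposited table holds natural log values, which the authors made from UMI counts with Cell Ranger 2.1.1, mm10 and Seurat, as ln(1 + UMIs per 10000 of the cell). Each cell's UMIs were recovered from it, with 100% of values above 0 whole within 0.01. The replicates are the 2 libraries, with 54145377 and 64654306 UMIs, and the cells are not. No doublets were called, and the 5% deepest cells were left out as an alternative. The members and gene lists were chosen with earlier results of these data known. The text names all 6 members, up to 3 called genes a list and direction by fold, and the 3 genes most like each member. Some further genes of the lists and the residual levels were named after their values were seen.

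Mean levels per cell group and library were tested with limma 3.58.1 (R 4.3.3) on log2(level + 0.1), with library as a term and a threshold of 0.05 on adjusted p, after the script was tested on simulated data. Shares have exact binomial 95% intervals, and a count of 0 is also given the limit of 3 counts. Cells were clustered with leidenalg 0.10.2 (30 components, 15 neighbours, resolution 1). Genome places are from GENCODE M21. Alternatives covered the pseudocount, filter, marker number, depth, scaling, clusters and each library left out.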

Additional observations from a re-analysis of the deposited data

How the results depend on the processing

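For marker-positive against other cells, each of the 4 members tested kept its direction and its call under every alternative with a test, and single libraries gave log2 folds of 5.47 to 5.76 (Pou5f1), 4.37 to 4.56 (Sox2), 1.85 to 2.03 (Klf4) and -0.72 to -0.55 (Myc). Sox2 lay below the minimum in the other cells, so its kept call was built in wherever that minimum applied and supports nothing further. The same holds for Pou5f1 at a minimum of 0.5, and for Myc, which lay below the minimum in the marker-positive cells. The size of the folds depends on the pseudocount, and from 1 to 0.01 it went from 3.36 to 6.41, 1.87 to 6.12, 0.78 to 2.33 and -0.11 to -1.30 in the same order. Genes called numbered 3461 higher and 4400 lower with no filter on low values, and 765 higher and 954 lower with a minimum mean of 0.5. Centring on the median fold changed the split of calls from 31.3% higher and 45.9% lower to 38.5% and 39.4%. Without the replicate block the folds were the same, limma adjusted p was 2.01e-06, 1.05e-06, 6.35e-06 and 0.00425 in the same order, and 2069 genes were higher and 3079 lower, so the block changed no call of a member.

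For cells with 1 or 2 markers against none, single libraries gave 0.10 to 0.36 (Pou5f1), 0.12 to 0.17 (Sox2), -0.48 to -0.35 (Klf4) and 0.02 to 0.11 (Myc). The calls of Pou5f1 and Klf4 were lost with a pseudocount of 1 (0.0497 and -0.10) and with no filter (0.23 and -0.41). Pou5f1 was also not called without the pluripotent-like cluster (0.12), nor Klf4 at matched depth (-0.20), where Myc turned to -0.0205. Sox2 was called with a pseudocount of 0.01 (0.45). With markers counted at 3000 UMIs, Pou5f1 was at 3.72, Sox2 at 2.66, Klf4 reversed at 0.61 and Myc at -0.0559, and 68 of 384 and 190 of 505 cells with 1 or 2 markers were then in the pluripotent-like cluster. Genes higher and lower numbered 190 and 442 with a pseudocount of 1, 1128 and 1896 with markers at 3000 UMIs, and 326 and 685 at matched depth. With no filter limma called 0 and 0, with 1228 higher and 2092 lower at an unadjusted p under 0.05. The cluster and matched-depth settings were chosen after seeing the data.

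The difference in all 4 factors was 4.45 to 12.5 percentage points in single libraries, 0.312 with cells thinned to 3000 UMIs, 76.1 for at least 3 of the 4 and 52.6 with any Myc family gene as the fourth. Differences in detection, in percentage points, at 3000 UMIs and with 2 or more UMIs required, were 87.7 and 94.3 for Pou5f1, 19.3 and 53.9 for Klf4, -2.55 and -2.36 for Myc, 11.4 and 33.3 for Mycn and -0.0339 and 0.218 for Mycl, whose sign turned with thinning, and 51.5 for Sox2 at 3000 UMIs. With summed UMIs, Klf4 was 1.07 and Mycn 0.435 in the pluripotent-like cluster. With markers called at 3000 UMIs, the family share of Mycl in marker-positive cells was 5.12%, and in the others Myc took 76.6% and Mycn 21.6%. As a mean over cells at full depth, Mycn took 6.89% in the other cells. With no filter, 9 targets of Pou5f1 and Sox2 and 7 stand-in factors were higher. Spearman's correlation kept 1, 0, 1, 0 and 0 of 3 genes for Pou5f1, Sox2, Klf4, Mycn and Mycl. Myc in marker-positive cells (32 and 29 UMIs) and Mycl anywhere are limited by depth. The cause of these changes was not tested.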
